A study of Mus musculus with 12 samples.

Results

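The C1ql, cerebellin and neuronal pentraxin transcripts are described here in the ventral tegmental area (VTA) and the basolateral amygdala (BLA) of mice after early social isolation. The genes were 9 of 54429 entries of the gene count table, taken by name: C1ql1, C1ql2, C1ql3, Cbln1, Cbln2, Cbln4, Nptx1, Nptx2 and Nptxr. C1ql1 was chosen by its counts in isolated VTA, where it was higher than in group-housed VTA, so that contrast is described for C1ql1 without a test. The other 8 genes were named with it as relatives in the 3 families.

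Synapse organisers are proteins that bring the presynaptic and postsynaptic membranes together and hold transmitter receptors in place. The C1ql proteins and the cerebellins carry a globular C1q domain, are secreted by presynaptic neurons and bind receptors across the cleft. C1ql proteins bind the adhesion receptor Adgrb3 (Bai3), and cerebellins join presynaptic neurexins to postsynaptic GluD receptors, which is best known for Cbln1 at cerebellar parallel fibre synapses. The neuronal pentraxins Nptx1 and Nptx2 are secreted proteins that gather AMPA receptors at excitatory synapses, while Nptxr is anchored in the membrane and is released when the protease Adam17 cuts it. C1ql1 is also a transcript of oligodendrocyte precursor cells in mouse brain, so not every copy measured in whole tissue need come from neurons.

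The study sequenced total RNA depleted of ribosomal RNA from brain punches of C57BL/6 mice in 4 groups of 3 libraries: VTA of isolated females, VTA of group-housed females, BLA of isolated males and BLA of group-housed males. Region and sex changed together, so a difference between VTA and BLA cannot be told apart from a difference between females and males. Neither the age of the mice nor the number of animals behind a library is given, so p-values measure the spread between libraries, which may be technical. In bulk tissue, fewer cells of a type and less RNA per cell cannot be told apart.

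Total counts were between 28277721 and 69270051 per library, and each of the 9 genes passed the filter on low counts in every comparison. Levels are given as CPM, read counts scaled to the size of the library. The dopamine transporter Slc6a3 fits the VTA label, with 230.5 to 520.3 CPM in VTA and no BLA library above 1.093 CPM. The glutamate transporter Slc17a7, a marker of cortical and basolateral excitatory neurons, was at 448.9 to 983.4 CPM in the BLA libraries. Loci that collect ribosomal RNA reads held 18.6% of the counts of isolated BLA library 3, 28.6% of group-housed BLA library 1 and 41.8% of group-housed BLA library 2, against at most 1.57% elsewhere. Isolated VTA library 3, and to a lesser extent isolated VTA library 1, had higher sums of choroid plexus and cortical markers than the other VTA libraries. The source of these transcripts was not tested, and the values that rest most on library 3 are also given without it.

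On the mm10 build (GENCODE M21) C1ql1 lies at chr11:102939264-102946688 on the minus strand, C1ql2 at chr1:120340582-120343174 on the plus strand and C1ql3 at chr2:13003457-13011806 on the minus strand. Cbln1 lies at chr8:87468405-87472609 and Cbln4 at chr2:172036233-172043466, both on the minus strand. Nptx1 lies at chr11:119538719-119547753 and Nptxr at chr15:79786351-79804766, both on the minus strand, and Nptx2 at chr5:144545902-144557478 on the plus strand. The summed exon length was between 1473 bases for C1ql1 and 5217 bases for Nptx1.

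C1ql genes are close relatives, so reads from one could in part align to another. The longest stretches of identical coding sequence were short, and 3 are printed to show how far apart the genes are. They come from the GENCODE M21 transcripts of the mm10 build, and capitals mark bases that are identical in both genes.
C1ql1 and C1ql2: GAGATGCTGGGCACCTGCCGCATG
C1ql1 and C1ql3: GAGATGCTGGGCACCTGCCGCATGGT
C1ql2 and C1ql3: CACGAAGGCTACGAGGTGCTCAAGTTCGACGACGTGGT
The first is 24 bases, the second 26 and the last 38. Over aligned coding sequence C1ql1 was 67.1% identical to C1ql2 and 73.1% identical to C1ql3, and C1ql2 was 66.9% identical to C1ql3. The first and second runs are one site in the 3 genes, since the second contains the whole of the first. Cbln1 and Cbln4 were 66.6% identical with a longest run of 14 bases, and the other cerebellin pairs shared runs of 18 and 21 bases. Nptx1 and Nptx2 were 62.6% identical with a longest run of 16 bases.

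Promoter windows were matched by symbol in RefSeq for 3 of the 9 genes, C1ql2, C1ql3 and Cbln4. C1ql2 and Cbln4 are shown because both were higher in VTA than in BLA. Each window runs from 250 bases before the start of the gene to 50 bases after it, on build GRCm38.p6, with every CG in capitals. C1ql2 lies on the plus strand at chr1:120340332-120340631 and Cbln4 on the minus strand at chr2:172043417-172043716.
C1ql2: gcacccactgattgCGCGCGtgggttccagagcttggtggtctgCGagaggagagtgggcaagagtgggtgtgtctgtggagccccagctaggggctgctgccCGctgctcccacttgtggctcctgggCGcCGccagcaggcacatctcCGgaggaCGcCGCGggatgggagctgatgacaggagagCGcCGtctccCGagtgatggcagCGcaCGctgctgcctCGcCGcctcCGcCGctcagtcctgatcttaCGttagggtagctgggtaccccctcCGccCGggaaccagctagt
Cbln4: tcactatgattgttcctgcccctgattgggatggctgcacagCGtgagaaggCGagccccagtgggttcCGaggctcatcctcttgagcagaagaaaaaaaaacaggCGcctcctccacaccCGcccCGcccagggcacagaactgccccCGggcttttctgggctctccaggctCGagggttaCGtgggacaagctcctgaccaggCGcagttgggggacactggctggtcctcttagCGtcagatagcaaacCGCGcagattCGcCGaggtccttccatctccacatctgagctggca
The C1ql2 window held 23 CpG sites and was 67.3% G and C, and the Cbln4 window held 15 CpG sites and was 60.3% G and C. The median of 32544 RefSeq windows was 7 CpG sites. At least 23 were found in 21.7% of them and at least 15 in 34.9%. Both strands of both windows were searched for the cAMP response element TGACGTCA, the AP-1 site TGANTCA, the TATA box TATAAA and the EGR site GCGNGGGCG, and no match to any of the 4 was found in either. These motifs were in 1.8%, 7.79%, 13.6% and 5.6% of all windows.

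**Figure D1:**
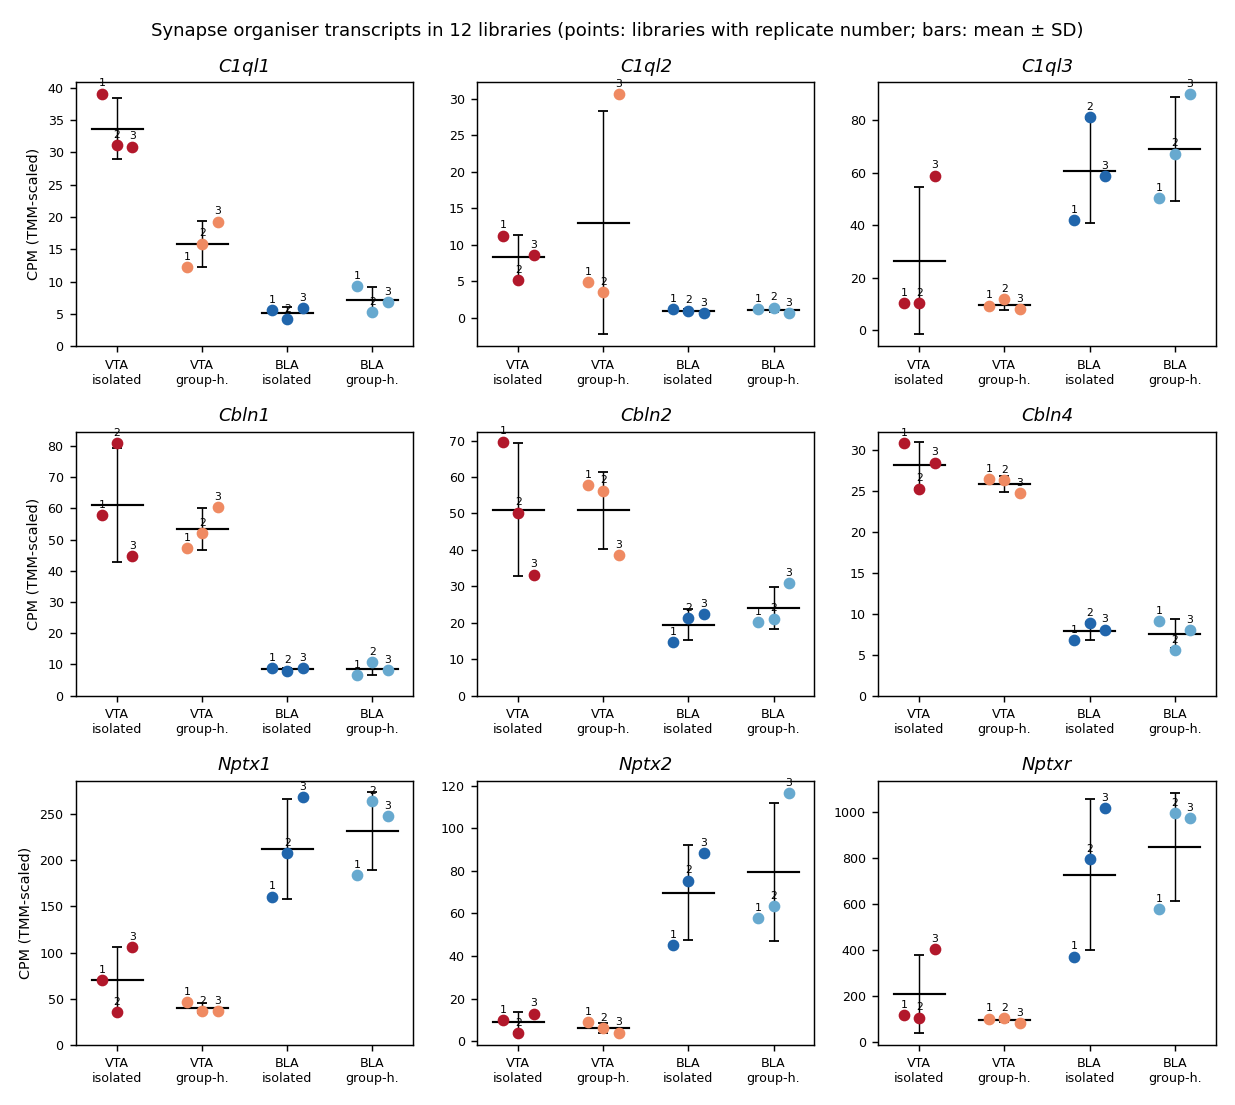
Level of each of the 9 genes in CPM, scaled by TMM over the 12 libraries. Points are libraries with their replicate number, the horizontal line is the group mean and the bar is ± 1 SD (n = 3). The C1ql1 points of isolated VTA, from 30.89 to 39.11 CPM, lie above all others of that gene, and C1ql3 and Nptxr have 1 high point in isolated VTA, at 58.84 and 402.2 CPM.

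The regions differed in which members they held. In group-housed mice, VTA had more C1ql1, C1ql2, Cbln1, Cbln2 and Cbln4, and BLA had more C1ql3, Nptx1, Nptx2 and Nptxr. C1ql1 was 2.18-fold higher in VTA and C1ql2 12.7-fold higher, and Nptx1 was 5.82-fold lower and Nptx2 12.6-fold lower. All 9 passed the test, 5 higher and 4 lower in VTA (edgeR quasi-likelihood test, Benjamini-Hochberg adjusted p at most 0.05), where 37.2% of all 25009 genes tested passed, 17.3% higher and 19.9% lower. The groups of all 9 did not overlap, which was also the case for 52.2% of all genes. Calls were thus common in this contrast, and the group-housed VTA values of C1ql1 were part of the comparison it was chosen on. Without the 3 BLA libraries rich in ribosomal RNA reads, library 3 was the only one left in group-housed BLA. In that fit C1ql2 at 4.31, C1ql3 at -3.14 and Cbln2 at 0.80 on the log2 scale did not pass.

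Cbln1, the cerebellin that bridges neurexins and GluD receptors, was at 47.33, 52.11 and 60.48 CPM in group-housed VTA, against 6.627, 10.65 and 8.139 CPM in group-housed BLA. The lowest VTA library was far above the highest BLA library. Cbln1 had a log2 fold change of 2.67 (SE 0.22, adjusted p = 3.65e-06, edgeR quasi-likelihood test with Benjamini-Hochberg adjustment). Cbln4, a cerebellin that also binds the netrin receptor Dcc, was at 26.36, 26.32 and 24.71 CPM in group-housed VTA, against 9.111, 5.569 and 7.945 CPM in group-housed BLA. It was the steadiest member within VTA, and its groups did not overlap. Its log2 fold change was 1.75 (SE 0.15, adjusted p = 1.96e-06, edgeR with Benjamini-Hochberg adjustment).

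Cbln2, a cerebellin found widely outside the cerebellum, was at 57.68, 56.29 and 38.58 CPM in group-housed VTA, against 20.21, 21.13 and 30.77 CPM in group-housed BLA. The lowest VTA and the highest BLA library lay close together. Cbln2 had a log2 fold change of 1.07 (SE 0.29, adjusted p = 0.0165, edgeR with Benjamini-Hochberg adjustment). Without any 1 of group-housed BLA libraries 1 and 2 and group-housed VTA libraries 1 and 2, it missed the threshold, with adjusted p-values between 0.0538 and 0.0656 by edgeR with Benjamini-Hochberg adjustment.

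C1ql1, a ligand of Adgrb3 known from climbing fibre synapses of the cerebellum, was at 12.30, 15.88 and 19.29 CPM in group-housed VTA, against 9.36, 5.327 and 6.883 CPM in group-housed BLA. Every VTA library was above every BLA library. C1ql1 had a log2 fold change of 1.12 (SE 0.21, adjusted p = 0.000914, edgeR with Benjamini-Hochberg adjustment). Its group-housed VTA values were part of the comparison it was chosen on, so this test is not independent of that choice. C1ql2, known in mouse from hippocampal mossy fibre synapses, was at 4.85, 3.549 and 30.61 CPM in group-housed VTA, against 1.16, 1.392 and 0.6901 CPM in group-housed BLA. Group-housed VTA library 3 stood well above the other VTA libraries, while even the lowest of them was above all BLA libraries. C1ql2 had a log2 fold change of 3.67 (SE 0.89, adjusted p = 0.0107, edgeR with Benjamini-Hochberg adjustment), and without that library it was 2.03 and still passed (adjusted p = 0.000783, edgeR with Benjamini-Hochberg adjustment).

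C1ql3, the C1ql member known in mouse from excitatory neurons of the forebrain, amygdala included, went the other way. It was at 9.36, 11.67 and 8.004 CPM in group-housed VTA, against 50.25, 67.19 and 89.76 CPM in group-housed BLA. The groups were far apart, with a log2 fold change of -2.84 (SE 0.71, adjusted p = 0.0137, edgeR with Benjamini-Hochberg adjustment). Without group-housed VTA library 3 the adjusted p was 0.054 by edgeR with Benjamini-Hochberg adjustment.

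The pentraxins were all lower in VTA. Nptxr, the membrane-anchored pentraxin, was at 101.0, 104.9 and 83.41 CPM in group-housed VTA, against 577.7, 993.8 and 970.9 CPM in group-housed BLA, a log2 fold change of -3.14 (SE 0.61, adjusted p = 0.00374, edgeR with Benjamini-Hochberg adjustment). Nptx1 was at 46.41, 36.39 and 36.66 CPM in group-housed VTA, against 183.8, 263.7 and 247.7 CPM in group-housed BLA, a log2 fold change of -2.54 (SE 0.38, adjusted p = 0.000707, edgeR with Benjamini-Hochberg adjustment). Nptx2 (Narp), which neurons also induce when they are active, was at 8.827, 6.113 and 4.043 CPM in group-housed VTA, against 57.9, 63.5 and 116.7 CPM in group-housed BLA, a log2 fold change of -3.66 (SE 0.55, adjusted p = 0.000879, edgeR with Benjamini-Hochberg adjustment). For none of the 3 did the groups overlap.

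**Figure D2:**
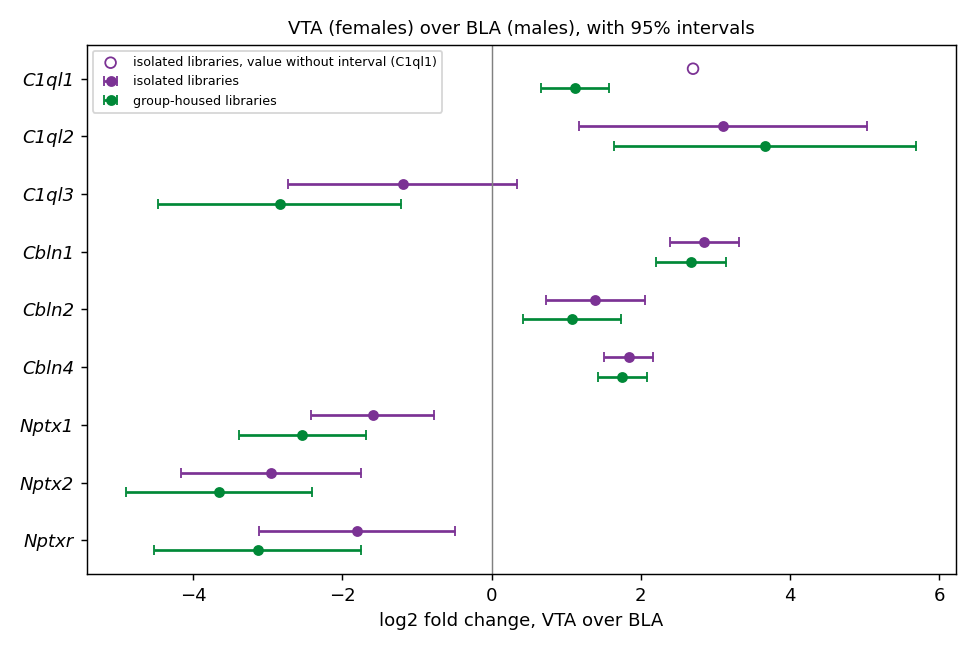
Log2 fold change of VTA over BLA for each gene, in isolated and in group-housed libraries, with 95% intervals from edgeR (n = 3 libraries per group). The open symbol is C1ql1 among isolated libraries, 2.70, given without an interval. Cbln1, Cbln2, Cbln4, C1ql1 and C1ql2 lie right of 0, and C1ql3 and the pentraxins left of it.

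Among isolated mice the directions were as in the group-housed ones, with 7 of the 8 tested members past the threshold, 4 higher and 3 lower in VTA, against 34.4% of all genes, 17.9% higher and 16.5% lower. Cbln1 was 2.85 (SE 0.21), Cbln4 1.84 (SE 0.15), Cbln2 1.39 (SE 0.30) and C1ql2 3.10 (SE 0.85) on the log2 scale of VTA over BLA, with adjusted p-values of 3.87e-06, 2.11e-06, 0.00518 and 0.0211 (edgeR with Benjamini-Hochberg adjustment). Nptx2 was -2.96 (SE 0.53, adjusted p = 0.00285), Nptx1 -1.60 (SE 0.36, adjusted p = 0.00876) and Nptxr -1.80 (SE 0.58, adjusted p = 0.0407) by edgeR with Benjamini-Hochberg adjustment. C1ql1 was at 2.70, for which no test is given.

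C1ql3 was the member that did not pass, at -1.19 (SE 0.67, adjusted p = 0.208, edgeR with Benjamini-Hochberg adjustment). Its isolated BLA libraries were at 41.89, 81.16 and 58.65 CPM, and the isolated VTA libraries at 10.27, 10.30 and 58.84 CPM, so that VTA library 3 lay inside the BLA range. Without that library the log2 fold change was -2.56 (adjusted p = 0.000425, edgeR with Benjamini-Hochberg adjustment). The Nptxr call was the least stable, since it was lost in 10 of the 12 fits that each left out 1 library, with adjusted p-values up to 0.127 by edgeR with Benjamini-Hochberg adjustment. C1ql2 lost its call in 4 of the 12, with adjusted p-values up to 0.0774 by edgeR with Benjamini-Hochberg adjustment. Without the 3 BLA libraries rich in ribosomal RNA reads, isolated BLA kept libraries 1 and 2, and group-housed BLA kept 1 library. In that fit C1ql2 at 2.93, Nptx1 at -1.39 and Nptxr at -1.49 did not pass. Without the filter on low counts Nptxr, at -1.80, did not pass (adjusted p = 0.0648, edgeR with Benjamini-Hochberg adjustment).

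Within each family the leading gene was compared on the scale of CPM per kilobase of exon, which allows levels of different genes to be set side by side. C1ql1 made up 64.2% ± 18.2 of the summed C1ql1, C1ql2 and C1ql3 level in isolated VTA and 54.0% ± 11.1 in group-housed VTA, against 13.5% ± 5.17 in isolated BLA and 15.7% ± 6.99 in group-housed BLA (SD, n = 3 libraries each). C1ql3 held 24.6% ± 20.3 in isolated VTA and 20.8% ± 9.36 in group-housed VTA, against 84.6% ± 5.84 in isolated BLA and 82.6% ± 7.39 in group-housed BLA. The C1ql family thus had a different leading gene in each region. In isolated VTA library 3, however, C1ql3 held 47.9% and C1ql1 43.3%, and in group-housed VTA library 3 C1ql2 held 48.5% and C1ql1 41.5%.

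Within the cerebellins and the pentraxins the shares lay closer together between the regions. Of the summed cerebellin level per kilobase, Cbln1 held 42.3% ± 7.65 in isolated VTA and 40.1% ± 6.73 in group-housed VTA, against 23.2% ± 4.12 in isolated BLA and 20.7% ± 6.00 in group-housed BLA. Cbln2 held 36.6% ± 7.19 in isolated VTA and 39.7% ± 6.85 in group-housed VTA, against 54.6% ± 4.45 in isolated BLA and 60.1% ± 5.32 in group-housed BLA (SD, n = 3 libraries each). Cbln4 held between 19.2% and 22.2% on average in all 4 groups. Nptxr held between 64.9% and 68.1% of the pentraxin level on average in every group, although the summed pentraxin level ran from 24.8 CPM per kilobase in the lowest group-housed VTA library to 283.0 in the highest isolated BLA library.

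**Figure D3:**
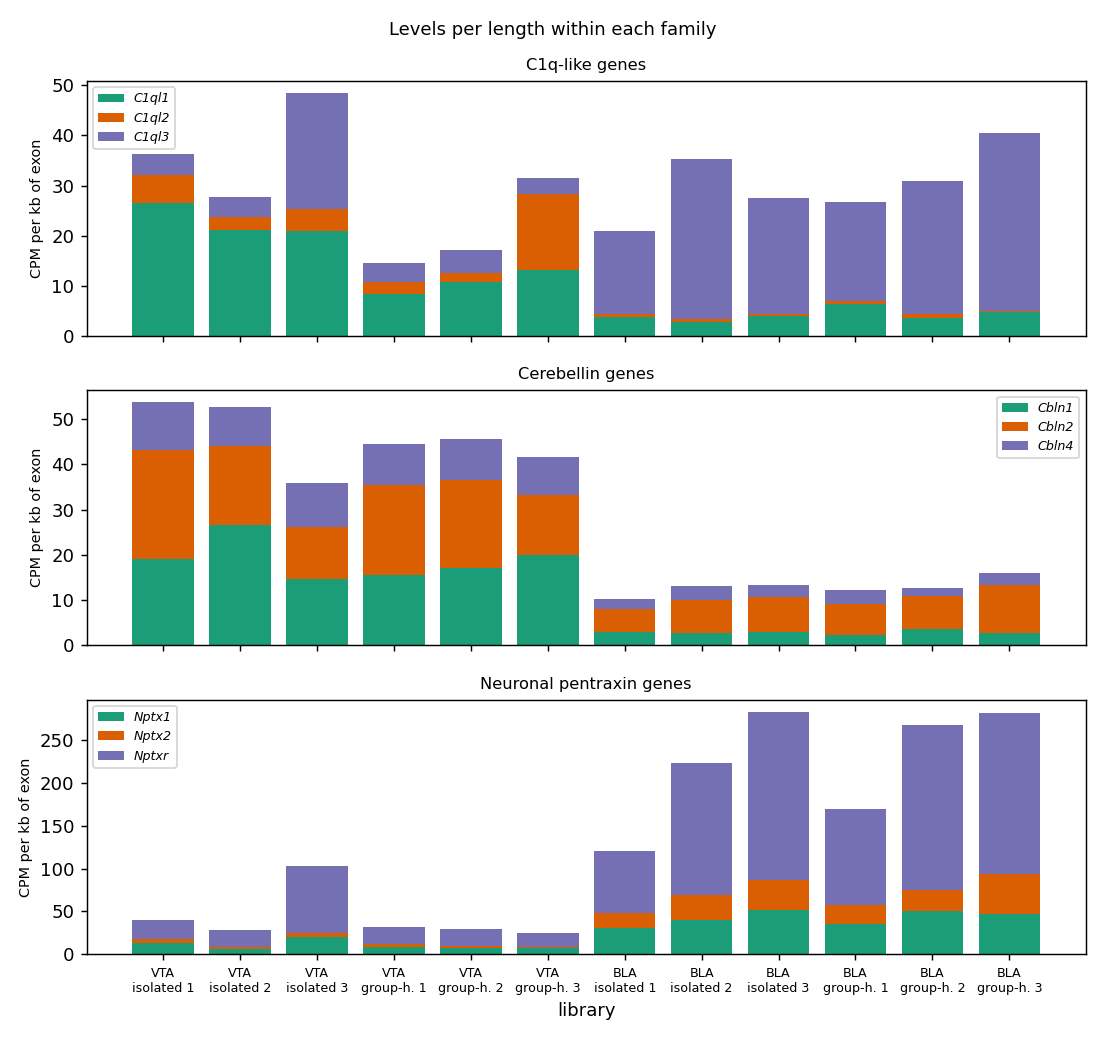
Level of each gene in CPM per kilobase of exon, stacked by family, with 1 bar for each of the 12 libraries. C1ql1 is the largest part of the C1ql bar in VTA except in isolated library 3 (C1ql3) and group-housed library 3 (C1ql2), C1ql3 is the largest part in every BLA library, and Nptxr is the largest part of every pentraxin bar.

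Ordered by mean CPM per kilobase, Nptxr came first in all 4 groups, at 40.2 in isolated VTA, 18.6 in group-housed VTA, 140.6 in isolated BLA and 163.9 in group-housed BLA. In isolated VTA it was followed by C1ql1 at 22.9, Cbln1 at 20.1 and Cbln2 at 17.6, and in group-housed VTA by Cbln2 and Cbln1, each at 17.6, and C1ql1 at 10.7. In isolated BLA it was followed by Nptx1 at 40.7, Nptx2 at 27.5 and C1ql3 at 23.9, and in group-housed BLA by the same genes at 44.4, 31.3 and 27.2. C1ql2 and Nptx2 were lowest in isolated VTA, at 4.15 and 3.54, C1ql3 and Nptx2 in group-housed VTA, at 3.82 and 2.50, and Cbln4 and C1ql2 in both BLA groups. Several neighbours in these orders cannot be separated by their spread. In isolated VTA, Nptxr and C1ql3 had SDs of 168.2 and 28.03 CPM about means of 208.0 and 26.47 CPM.

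C1ql1, the gene chosen for it, was higher in isolated VTA, and none of the 8 members tested passed there by edgeR with Benjamini-Hochberg adjustment. C1ql1 was at 39.11, 31.10 and 30.89 CPM in isolated VTA, against 12.30, 15.88 and 19.29 CPM in group-housed VTA. The lowest isolated library was above the highest group-housed library, in the libraries used for the choice. Groups did not overlap for 29.1% of all genes in this contrast. Its mean was 33.7 ± 4.69 CPM in isolated VTA and 15.8 ± 3.49 CPM in group-housed VTA (SD, n = 3 each), a log2 fold change of 1.03. This rise is the reason the gene was chosen and is not a test of it. It ran from 0.88 to 1.19 when each VTA library was left out in turn, which draws on the same libraries as the choice. Without isolated VTA libraries 1 and 3, which left 1 isolated library, it was 0.95.

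Of the 8 other members, 0 passed in VTA by edgeR with Benjamini-Hochberg adjustment, and 0 by DESeq2, where 0.00415% of all 24081 genes tested passed (1 gene by edgeR, and 485 by DESeq2). At an unadjusted p under 0.05, 0 of the 8 passed and 18.3% of all genes did. Of the 8, 6 log2 fold changes were above 0 and their median was 0.29, beside 49.8% of all genes above 0 and a median of -0.0013. Without isolated VTA library 3 the median of the 8 was 0.12. Without isolated VTA libraries 1 and 3, which left 1 isolated library, Cbln4, Nptx1 and Nptx2 fell below 0, to -0.056, -0.20 and -0.70.

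Nptxr was at 116.5, 105.4 and 402.2 CPM in isolated VTA, against 101.0, 104.9 and 83.41 CPM in group-housed VTA. Its groups did not overlap, as was the case for 29.1% of all genes, but isolated libraries 1 and 2 lay just above the highest group-housed value and library 3 far above. Nptxr had a log2 fold change of 1.05 (SE 0.60, 95% interval -0.52 to 2.62, adjusted p = 0.396, edgeR with Benjamini-Hochberg adjustment), and 0.15 without that library. C1ql3 was at 10.27, 10.30 and 58.84 CPM in isolated VTA, against 9.36, 11.67 and 8.004 CPM in group-housed VTA. Library 3 again stood alone, and the other 2 isolated libraries lay inside the group-housed range. C1ql3 had a log2 fold change of 1.39 (SE 0.83, 95% interval -0.77 to 3.54, adjusted p = 0.407, edgeR with Benjamini-Hochberg adjustment), and 0.04 without it.

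Nptx1 was at 70.21, 35.20 and 105.5 CPM in isolated VTA, against 46.41, 36.39 and 36.66 CPM in group-housed VTA. Isolated libraries 1 and 3 were above and library 2 below every group-housed one. The log2 fold change was 0.75 (SE 0.40, adjusted p = 0.357, edgeR with Benjamini-Hochberg adjustment). Without isolated library 2 it was 1.07 and passed (adjusted p = 0.047, edgeR with Benjamini-Hochberg adjustment). That fit kept isolated libraries 1 and 3, which had the higher cortical and choroid plexus marker sums. In it 1200 genes passed, against 1 with every VTA library kept. Nptx1 was at 0.35 without library 3, and at -0.20 without libraries 1 and 3, which left 1 isolated library. Nptx2 had the same order of isolated libraries, 10.04, 3.954 and 12.97 CPM, against 8.827, 6.113 and 4.043 CPM in group-housed VTA. Its log2 fold change was 0.44 (SE 0.47, adjusted p = 0.629, edgeR with Benjamini-Hochberg adjustment), 0.08 without library 3 and -0.70 without libraries 1 and 3.

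C1ql3, Nptx1, Nptx2 and Nptxr are the members that were higher in BLA than in VTA, and markers of cortical and basolateral excitatory neurons were unequal among the VTA libraries. The 12 markers summed to 289.4, 229.8 and 975.8 CPM in isolated VTA and to 195.7, 204.2 and 167.6 CPM in group-housed VTA, and all 12 had a log2 fold change above 0. Slc17a7 alone was at 23.76, 8.182 and 232.0 CPM in isolated VTA, against 2.883, 5.196 and 3.532 CPM in group-housed VTA. At most 1 of the 12 was at 0 in any VTA library. The 10 choroid plexus markers summed to 254.3, 28.91 and 3408 CPM in isolated VTA, against 33.52, 33.71 and 26 CPM in group-housed VTA, with none at 0, and Ttr led them at 204.7, 2.698 and 3106 CPM in isolated VTA, against 0.3549, 0.2547 and 0.8919 CPM in group-housed VTA. The 12 striatal projection neuron markers summed to 105, 92.67 and 340.6 CPM in isolated VTA, against 93.98, 102.3 and 87.73 CPM in group-housed VTA. Of these, 10 had a log2 fold change above 0 and 2 below. The part of any of these markers in the values of the 4 members was not tested.

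**Figure D4:**
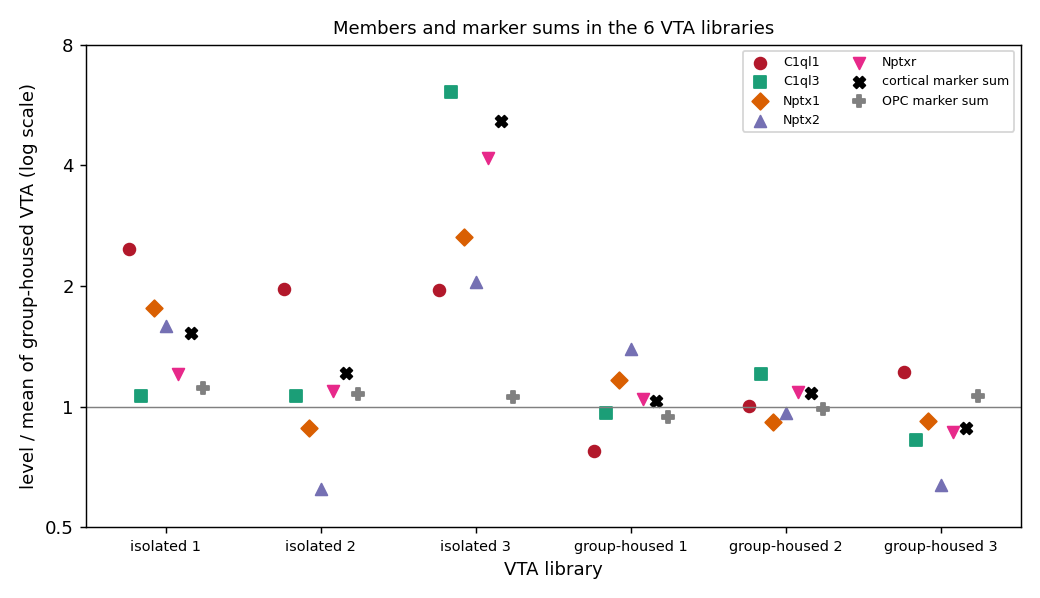
Level of C1ql1, of the 4 members that were higher in BLA and of 2 sums of marker genes in the 6 VTA libraries, each divided by its mean over the group-housed VTA libraries (log axis). In isolated library 3 the cortical marker sum was at 5.16, C1ql3 at 6.08 and Nptxr at 4.17 times that mean, whereas C1ql1 was at 2.47, 1.97 and 1.95 in the 3 isolated libraries.

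In isolated library 2, where the cortical and choroid plexus sums were the lowest of the isolated libraries, C1ql1 was at 31.10 CPM, beside the 30.89 CPM of library 3. The cortical sum of library 2, 229.8 CPM, was still above the 195.7, 204.2 and 167.6 CPM of group-housed VTA. Other marker sums also differed between the groups. The cerebellar and hindbrain markers summed to 286.6, 263 and 235.1 CPM in isolated VTA, against 187.3, 199.7 and 200.4 CPM in group-housed VTA, with 2 or 3 of the 9 at 0 in each library and 4 of the 6 tested above 0 on the log2 scale. The astrocyte markers summed to 3140, 3132 and 3489 CPM in isolated VTA, against 2749, 2972 and 2656 CPM in group-housed VTA, with none at 0 and 6 of the 8 above 0 on the log2 scale. Neither of these sums overlapped between the groups. Taken singly, 1 of the 6 cerebellar and hindbrain markers tested and 3 of the 8 astrocyte markers did not overlap, beside 29.1% of all genes. Markers of meninges and fibroblasts were highest in isolated library 2, at 280.5 CPM, against 95.35 and 106.8 CPM in the other isolated libraries and 81.89 to 151 CPM in group-housed VTA. The 18 markers of oligodendrocyte precursor cells summed to 660.5, 638.5 and 628.6 CPM in isolated VTA, against 560.3, 586.7 and 632.7 CPM in group-housed VTA. None was at 0, 13 of the 18 had a log2 fold change above 0, 5 had one below 0, the median was 0.097, and 0 passed by edgeR. The groups did not overlap for 6 of the 18, 4 of them higher and 2 lower in isolated VTA. Of all genes 29.1% did not overlap, and 49.8% had a log2 fold change above 0. The 10 myelin markers summed to 10000 to 13600 CPM in isolated VTA, against 6867 to 11260 CPM in group-housed VTA, all 10 with a log2 fold change above 0 and none passing by edgeR. The part of any of these cell types in the C1ql1 level was not tested.

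None of the 3 cerebellins passed in VTA after isolation. Cbln4 was at 30.78, 25.24 and 28.41 CPM in isolated VTA, against 26.36, 26.32 and 24.71 CPM in group-housed VTA. The ranges overlapped, and the interval of the log2 fold change, -0.13 to 0.27 around 0.07 (adjusted p = 0.69, edgeR with Benjamini-Hochberg adjustment), was the narrowest of the 8. Cbln1 was at 57.82, 80.88 and 44.74 CPM in isolated VTA, against 47.33, 52.11 and 60.48 CPM in group-housed VTA, with a log2 fold change of 0.15 (95% interval -0.40 to 0.69). Cbln2 was at 69.73, 50.25 and 33.20 CPM in isolated VTA, against 57.68, 56.29 and 38.58 CPM in group-housed VTA, with a log2 fold change of -0.05 (95% interval -0.79 to 0.68). The groups overlapped for both.

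C1ql2 was at 11.24, 5.111 and 8.538 CPM in isolated VTA, against 4.85, 3.549 and 30.61 CPM in group-housed VTA. All isolated libraries were above group-housed libraries 1 and 2, and library 3 was above them all. The log2 fold change was -0.72 (SE 0.96, 95% interval -3.23 to 1.79, adjusted p = 0.707, edgeR with Benjamini-Hochberg adjustment), and 0.90 without group-housed library 3, still short of the threshold (adjusted p = 0.289, edgeR with Benjamini-Hochberg adjustment).

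In BLA isolation moved no member past the threshold. Of all 22109 genes tested, 0% passed by edgeR with Benjamini-Hochberg adjustment, 1.99% had an unadjusted p under 0.05, and DESeq2 called 6 genes, 0 of them members. C1ql1 was at 5.598, 4.142 and 5.859 CPM in isolated BLA, against 9.36, 5.327 and 6.883 CPM in group-housed BLA. The ranges overlapped, and the log2 fold change was -0.48 (SE 0.22, 95% interval -0.96 to 0.00, adjusted p = 1, edgeR with Benjamini-Hochberg adjustment), with an unadjusted p of 0.0517 in the same edgeR test. It lay between -0.64 and -0.25 when each BLA library was left out.

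Cbln2, at 14.75, 21.36 and 22.37 CPM in isolated BLA and 20.21, 21.13 and 30.77 CPM in group-housed BLA, had a log2 fold change of -0.31 (SE 0.20). The other 7 members were between -0.22 and 0.05, and in all 9 the groups overlapped, whereas 7.1% of all genes had groups that did not. Nptxr was at 370.5, 793.1 and 1016 CPM in isolated BLA, against 577.7, 993.8 and 970.9 CPM in group-housed BLA, with an interval of the log2 fold change of -1.24 to 0.80. Nptx2 was at 44.98, 75.50 and 88.52 CPM in isolated BLA, against 57.90, 63.50 and 116.7 CPM in group-housed BLA, with an interval of -1.10 to 0.72. Without the 3 BLA libraries rich in ribosomal RNA reads, group-housed BLA kept 1 library. In that fit Nptx2 was at -0.95, Cbln2 at -0.77 and Nptxr at -0.74, and none passed by edgeR. Isolated BLA library 1 had the lowest value of its group for C1ql3, Nptx1, Nptx2, Nptxr, Cbln2 and Cbln4. In that library the cortical and basolateral marker sum was 1898 CPM, against 2656 to 3430 CPM in group-housed BLA. The striatal projection neuron sum was 1560 CPM there, against 400.3 to 1057 CPM in group-housed BLA. The myelin sum was 5662 CPM, against 2822 to 4805 CPM. All 12 striatal markers had a log2 fold change above 0 in isolated over group-housed BLA, beside 50.8% of all genes, and 0 passed by edgeR. The part of these markers in the member values was not tested.

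**Figure D5:**
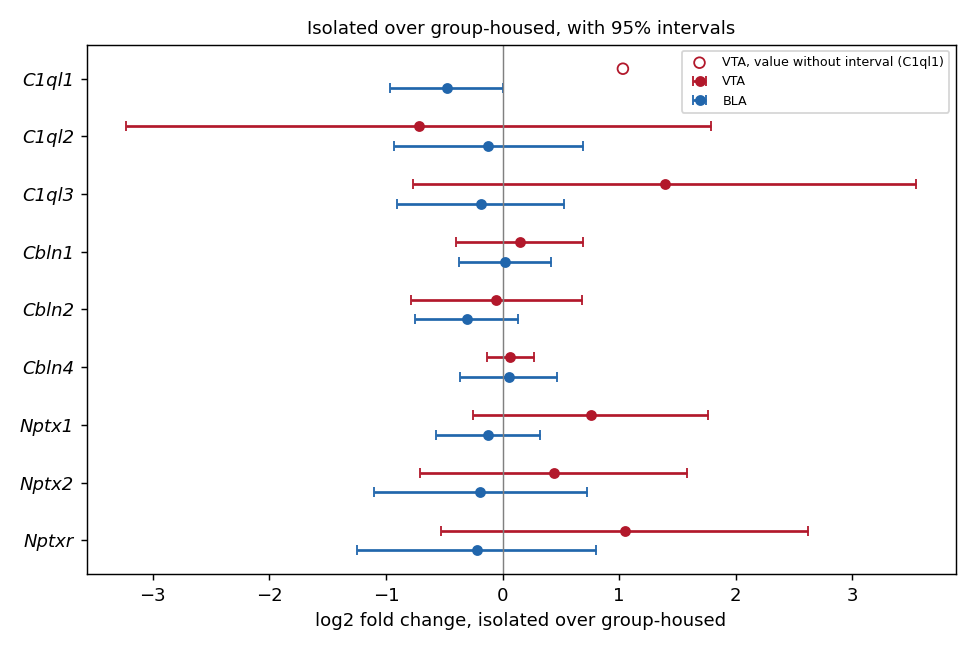
Log2 fold change of isolated over group-housed libraries for each gene in VTA and in BLA, with 95% intervals from edgeR (n = 3 libraries per group). The open symbol is C1ql1 in VTA, 1.03, without an interval, and each interval drawn includes 0 (for C1ql1 in BLA, -0.96 to 0.00).

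The responses in VTA and BLA were also set against each other. In VTA the log2 fold change minus that in BLA was 1.58 for C1ql1, for which no test is given because it uses the isolated VTA libraries. Of the 8 other members 0 passed by edgeR with Benjamini-Hochberg adjustment, as did 0% of all 25009 genes, while 14.9% of genes had an unadjusted p under 0.05 and DESeq2 called 138 genes, 0 of them members. The nearest was Nptx1 at 0.94 (95% interval -0.20 to 2.09, adjusted p = 0.396, edgeR with Benjamini-Hochberg adjustment). C1ql3 was at 1.65 (-0.52 to 3.81) and Nptxr at 1.33 (-0.49 to 3.15), both with isolated VTA library 3 as the high point, and at 0.28 and 0.42 without it.

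Among the receptors and partners of the 3 families, genes passed between regions and none passed after isolation by edgeR with Benjamini-Hochberg adjustment. Between the group-housed regions 17.3% of all genes were higher and 19.9% lower in VTA. All 3 C1ql receptor genes of the Adgrb family were lower in group-housed VTA than in group-housed BLA (edgeR with Benjamini-Hochberg adjustment), by log2 fold changes of -1.17 for Adgrb1, -1.54 for Adgrb2 and -0.64 for Adgrb3. Adgrb3, the best described C1ql receptor, was at 159.2, 154.5 and 137.2 CPM in group-housed VTA, against 233.6, 236.1 and 230.7 CPM in group-housed BLA. In isolated VTA it was at 156.2, 146.2 and 184.4 CPM, a log2 fold change of 0.05 over group-housed VTA (SE 0.10). Adgrb2 was at 145.5, 126.5 and 195.6 CPM in isolated VTA, against 110.9, 112.5 and 116.1 CPM in group-housed VTA, a log2 fold change of 0.40 that did not pass (adjusted p = 0.242, edgeR with Benjamini-Hochberg adjustment) and was 0.22 without isolated library 3.

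Of the 5 neurexin and GluD genes, to which cerebellins bind, 4 were lower and 1 was higher in group-housed VTA than in group-housed BLA by edgeR with Benjamini-Hochberg adjustment. The shares over all genes were 19.9% lower and 17.3% higher. Of those that were lower, Nrxn3 had a log2 fold change of -1.29, Nrxn2 of -0.77 and Grid1 of -0.37 in group-housed VTA over group-housed BLA. None of the 5 passed in VTA or BLA after isolation by edgeR. Dcc and Neo1, netrin receptors that bind Cbln4, passed in no comparison, with Dcc at 0.05 and Neo1 at -0.19 in group-housed VTA over BLA.

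Grik2 and Grik4 encode kainate receptor subunits that C1ql2 and C1ql3 recruit in mouse hippocampus. Grik4 was at 20.88, 19.65 and 18.12 CPM in isolated VTA, against 23.38, 24.33 and 24.36 CPM in group-housed VTA. Every isolated library was below every group-housed one, but the log2 fold change of -0.35 (SE 0.09, unadjusted p = 0.00302) did not pass after adjustment (adjusted p = 0.236, edgeR with Benjamini-Hochberg adjustment). In group-housed mice Grik4 was higher in VTA than in BLA, at 0.60 (adjusted p = 0.00127, edgeR with Benjamini-Hochberg adjustment), and Grik2 did not pass, at -0.10.

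AMPA receptor subunits, which the pentraxins cluster, were lower in group-housed VTA than in group-housed BLA in 3 of 4 cases by edgeR, namely Gria3 at -2.35, Gria2 at -1.20 and Gria1 at -0.82 on the log2 scale, as Nptx1, Nptx2 and Nptxr were. Gria4 was at 0.11 and did not pass, and 19.9% of all genes were lower in that contrast. Gria3 was at 80.95, 77.99 and 175.4 CPM in isolated VTA, against 70.16, 65.09 and 74.79 CPM in group-housed VTA, again with a high library 3, and its log2 fold change of 0.61 did not pass (adjusted p = 0.372, edgeR with Benjamini-Hochberg adjustment) and was 0.14 without that library. Adam17, the protease that releases Nptxr, was slightly higher in group-housed VTA than in group-housed BLA, at 0.24 (adjusted p = 0.037, edgeR with Benjamini-Hochberg adjustment), and at -0.09 in isolated over group-housed VTA.

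Wider lists of organisers were read in the same fits, where 17.3% of all genes were higher and 19.9% lower in group-housed VTA. Of 26 other secreted organisers, 9 were higher and 6 lower in group-housed VTA than in group-housed BLA by edgeR, among them Sparc at 2.75 and Fgf7 at 2.38 upward and Chrdl1 at -2.09 and Reln at -1.75 downward. Of 41 adhesion organisers 3 were higher (Il1rap, Tenm2 and Ephb2) and 35 lower, with a median of -0.80 beside 0.05 over all genes. After isolation in VTA 0 genes of either list passed by edgeR, and the medians were 0.11 for the secreted list and 0.18 for the adhesion list. Without isolated VTA library 3, in which the cortical markers summed to 975.8 CPM, these medians were 0.065 and 0.11. The part of those markers in them was not tested. The 2 secreted genes with the smallest p were Agrn at -0.28 and Lgi1 at 0.44, and the 2 adhesion genes were Cadm2 at 0.47 and Epha7 at 0.29.

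Activity-induced genes, the class to which Nptx2 belongs, had opposite medians after isolation in the regions. Of the 23 without Nptx2, 19 had a log2 fold change above 0 in isolated over group-housed VTA (median 0.44), and 22 had one below 0 in isolated over group-housed BLA (median -0.36), with 0 passing by edgeR in either. Of all genes, 49.8% were above 0 in VTA and 49.2% below 0 in BLA. The cortical and basolateral marker sum was highest among the VTA libraries in isolated library 3, at 975.8 CPM, and lowest among the BLA libraries in isolated library 1, at 1898 CPM. Without the first of these libraries the VTA median was 0.31 with 18 above 0, and without the second the BLA median was -0.42 with 22 below 0. The part of those markers was not tested. Nptx2 had the same signs with all libraries kept, 0.44 in VTA and -0.19 in BLA. Without isolated VTA library 3 it was 0.08 in VTA. Without isolated BLA library 1 it was 0.043 in BLA, so its sign there changed. Nr4a2 at 0.62 and Dusp6 at 0.44 had the smallest p in VTA. In group-housed VTA 19 of the 23 were lower than in group-housed BLA by edgeR, and 0 were higher, beside 19.9% and 17.3% of all genes.

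The genes whose levels over the 12 libraries were most like those of each member were found by the root mean square difference of log2 CPM, each gene centred on its mean, among 13930 genes with a mean of at least 1 CPM. For C1ql1 they were Tuft1 at 0.378, Agtr2 at 0.402 and Srpx2 at 0.406. Tuft1 was at 10.11, 7.61 and 8.006 CPM in isolated VTA and at 6.757, 6.028 and 7.492 CPM in group-housed VTA. Its groups did not overlap, as was the case for 29.1% of all genes. Agtr2, the angiotensin type 2 receptor gene, was at 7.515, 3.643 and 5.875 CPM in isolated VTA and at 3.135, 1.80 and 4.234 CPM in group-housed VTA, so its groups overlapped. C1ql1 was chosen for its rise in that contrast, so neither gene is compared with it there. For C1ql2 the nearest was Kcng4, a potassium channel subunit gene, at 0.426, which was also highest among group-housed VTA libraries in library 3, at 42.15 CPM against 14.05 and 9.679 CPM in the other 2.

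For C1ql3 the nearest genes were Pter, Stum and Hpcal4, and for Nptxr they were Fam81a, Pdzrn3 and Sv2b, a synaptic vesicle protein gene. Sv2b was at 143.9, 128.2 and 378.0 CPM in isolated VTA and at 108.8, 118.4 and 129.1 CPM in group-housed VTA, with the same high library 3. Plch2 and Camk1d were nearest to Nptx1, and Hrk was among the nearest to Nptx2. For Cbln1 they included Sparc, another secreted organiser, and for Cbln4 they were Adcy7, Plch1 and Itpkb. Cbln2 was nearest to Slc26a11, Zfp105 and Slc25a18. The 12 libraries share 2 regions, which enter every one of these likenesses.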

How the data were processed

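Total RNA from punches of VTA and BLA was extracted with Trizol and made into stranded libraries after ribosomal RNA depletion, per the labels' protocols. The deposited values are raw read counts per gene for 12 libraries. Cutadapt, TopHat2, HTSeq and the build mm10 are named in the submitters' processing notes. Their versions, the strand setting and the annotation are not known here. The deposited series count table was used. It differs from the per-sample tables at 2 entries with repeated names, and at 0 of the 9 members.

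Groups follow the sample labels, and sex follows the design text. Low counts were removed with filterByExpr at its defaults of 10 per library and 15 in total. The test was the robust quasi-likelihood F test of edgeR 4.0.16 (R 4.3.3) with TMM factors, Benjamini-Hochberg adjustment over the whole table and a threshold of 0.05. Isolation was tested within each region on 6 libraries. Regions, and the difference of the responses, were tested on all 12. SE is the log2 fold change divided by the root of F. CPM is scaled by TMM over 12 libraries, and exon lengths are from GENCODE M21. The alternatives were DESeq2 1.42.0, RLE factors, no filter, a replicate block, a single fit of 12 libraries and the removal of ribosomal RNA loci or of libraries. The code was tested on simulated counts.

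Nptxr shares 890 exonic bases with Npcd on the same strand, which had 0 counts in every library. C1ql3 overlaps Gm37811 and Gm37824 on the opposite strand, by 1547 and 80 bases, so their counts may be shared. The members, gene lists and tests were chosen with earlier results of these data known. All members are named. From each list the genes that passed and the 2 with the smallest p in VTA were eligible, and of those that passed in long lists only examples are given. For each member the 3 genes of most similar pattern were eligible, without an entry bearing a date for a name. Some genes that these rules select are not reported here.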

Additional observations from a re-analysis of the deposited data

How the results depend on the processing

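Of the 8 members tested in VTA, 0 passed in any but 1 fit. The number of genes past the threshold after isolation in VTA was 1, against 485 with DESeq2, 17 without the filter and 0 with the replicate block. When 1 library was left out it was 0 to 1200, with 0 to 1 members among them. In BLA the number of genes was 0, against 6 with DESeq2, 8 without the filter and 0 to 4 with 1 library left out. For the difference of responses it was 0, against 138 with DESeq2, 1 without the filter, 1 with the replicate block and 0 to 487 with 1 library left out. Between group-housed regions 9312 genes passed, against 8896 with the block of replicate number within region (8 members, without C1ql3 at an adjusted p of 0.0547 by edgeR) and 5144 without the ribosomal-RNA-rich BLA libraries (6 members). Between isolated regions 8604 passed, against 8248 with the block (6 members, without Nptxr at an adjusted p of 0.056 by edgeR) and 5389 without isolated VTA libraries 1 and 3, and 4 members passed without the ribosomal-RNA-rich libraries. Isolated and group-housed libraries of a region with the same replicate number had correlations from -0.06 to 0.214 over 6 pairs. The highest was for number 1 in BLA. In BLA the block lowered the SE of every member but Cbln4, for Nptxr from 0.41 to 0.12. In VTA the SE moved both ways. Whether the numbers pair libraries within a region cannot be told from 3 libraries per group. No pairing between regions was used. Signs changed for C1ql2 at 0.65 and Cbln4 at -0.029 in BLA without the ribosomal-RNA-rich libraries, and Cbln2 at 0.0051 in VTA in a single fit of 12 libraries. Without isolated VTA libraries 1 and 3, Cbln4 was at -0.056, Nptx1 at -0.20 and Nptx2 at -0.70 in VTA, and at -0.067, -0.048 and -0.47 in the difference. C1ql2 was at 0.15 in the difference with the block. When 1 library was left out, signs also changed in BLA for C1ql2 (-0.40 to 0.068), C1ql3 (-0.46 to 0.052), Cbln1 (-0.14 to 0.20), Cbln4 (-0.11 to 0.20), Nptx1 (-0.33 to 0.042), Nptx2 (-0.40 to 0.20) and Nptxr (-0.54 to 0.095). They did so in VTA for C1ql2 (-1.16 to 0.90), Cbln1 (-0.13 to 0.34) and Cbln2 (-0.32 to 0.19), and in the difference for C1ql2 (-1.01 to 1.07), Cbln1 (-0.084 to 0.35) and Cbln4 (-0.065 to 0.21). None of these passed the threshold.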

Other observations

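The C1ql and cerebellin families each have a gene outside the 9. C1ql4 was at 4.852, 2.052 and 3.029 CPM in isolated VTA and at 1.124, 1.002 and 3.532 CPM in group-housed VTA. In BLA it had 0, 2 and 0 counts in the isolated libraries and 0 counts in each group-housed library, where 3 counts would be 0.0828, 0.182 and 0.0531 CPM. It passed between regions in both housing groups by edgeR, and in VTA its isolated and group-housed ranges overlapped. Within group-housed VTA it was highest in library 3, the library in which C1ql2 stood at 30.61 CPM. Cbln3, known from cerebellar granule cells in mouse, was below 1 CPM in every library.

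The d-amino acid oxidase gene Dao was among the genes nearest to C1ql2 in pattern. It was at 2.302, 2.586 and 2.347 CPM in isolated VTA, and at 1.272, 2.615 and 6.874 CPM in group-housed VTA, with its highest value in the same group-housed library 3. Marker sums of dopamine neurons were also highest there, at 1982 CPM, against 946.4 and 1230 CPM in the other group-housed VTA libraries and 1312 to 1603 CPM in isolated VTA. Their part in the C1ql2 level was not tested.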
